A study of Oryza sativa with 6 samples.

Results

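The jasmonate synthesis and lipoxygenase loci are 6 loci of the deposited expression table, found by their identifiers among 35500 loci. They are allene oxide synthase 1 (ZS03g0714600, here AOS1), allene oxide synthase 2 (ZS03g0115700, AOS2), allene oxide cyclase 3 (ZS11g0268400, AOC3), 12-oxophytodienoate reductase 7 (ZS08g0538200, OPR7) and linoleate 9S-lipoxygenases 3 (ZS03g0633100, LOX3) and 4 (ZS03g0633300, LOX4). The product names are those of the table. The AOC3 locus is merged with a second identifier, ZS11g0268300, so its values cover both.

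The libraries come from the mesocotyl, the stem-like organ below the coleoptile, of the indica rice cultivar P25. There were 6 RNA pools, each sequenced once, so every group is 1 library. Seedlings were kept in darkness for 1, 3 or 5 days after sowing, or given light after 5 days of darkness, with harvest 30 min, 60 min and 24 h later. No difference below has a replicate check or a p-value, and each describes the libraries at hand, not the conditions.

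Jasmonate is an oxylipin hormone best known for responses to wounding and attack. A lipoxygenase first adds oxygen to linolenic acid in the plastid, allene oxide synthase and allene oxide cyclase turn the product into 12-oxophytodienoic acid (OPDA), and an OPDA reductase acts on it in the peroxisome before beta-oxidation shortens the chain to jasmonic acid. The 9S-lipoxygenases oxygenate the other end of the fatty acid chain and feed a separate branch of oxylipins. In rice seedlings, mutants without allene oxide cyclase lack jasmonate and keep long coleoptiles in light.

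In the deposited values, the 30-min light library held the highest level of 5 of the 6 loci: AOS1, AOC3, OPR7, LOX4 and, by a narrow margin, LOX3. AOS2 differed from the rest, with its highest level after 24 h. Levels are in FPKM, fragments scaled to transcript length and library size. That scaling does not remove a shift that many loci share. From 3 to 5 days of darkness the median difference over all loci was 0.27 on the log2 scale. Orders of libraries are those of the deposited FPKM, and small differences between libraries can depend on the scaling. For LOX3 the 30-min library (32.5 FPKM) lay just above the 60-min (32.0) and 1-day dark (31.8) libraries. With library sums scaled to their mean, its 60-min level was the higher of the light pair, by 0.01 on the log2 scale. The 30-min peak of LOX3 thus depends on the scaling. The share of all loci with their highest level in the 30-min library was not counted. OPR7 stood above the other 5 loci in every library, and AOS2 did not pass 2.70 FPKM in any.

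AOS1, the enzyme of the first step committed to jasmonate, was listed at 23.5 FPKM at 1 day, 4.13 at 3 days and 0 at 5 days in darkness, and at 48.8, 17.8 and 10.1 FPKM after 30 min, 60 min and 24 h of light. The 30-min library was the highest, the 1-day dark library came next, and all light libraries lay above the 3-day and 5-day dark libraries. The 0 at 5 days can be a failed estimate: 10 loci, AOS1 among them, were listed at 0 in that library and at 4 FPKM or more in each of the other 5. The same count was 11 to 25 for the other libraries, so the 5-day library does not stand out by it. No fold is therefore given against it, and the size of a log2 difference from it is set by the pseudocount. Against the 3-day dark library AOS1 stood 11.8-fold higher after 30 min, 4.32-fold after 60 min and 2.45-fold after 24 h.

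AOS2, a second allene oxide synthase, was listed at 0, 0 and 0.359 FPKM at 1, 3 and 5 days of darkness and at 0.325, 1.36 and 2.70 FPKM after 30 min, 60 min and 24 h of light. It reached 1 FPKM only in the 60-min and 24-h libraries, and only through these did it pass the filter described below. Of the summed level of both synthases, AOS2 made up 0.661% after 30 min, 7.10% after 60 min and 21.1% after 24 h. The 2 synthases thus stood in opposite order over the light libraries, AOS1 from high to low and AOS2 from low to high.

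AOC3, which forms the ring of OPDA, stood at 5.08, 2.36 and 3.93 FPKM at 1, 3 and 5 days of darkness and at 7.20, 6.58 and 2.66 FPKM after 30 min, 60 min and 24 h of light. Its 24-h level lay within the range of the dark libraries, while the 30-min and 60-min levels lay above all of them. The highest level was 3.06 times the lowest.

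OPR7, the peroxisomal reductase of the jasmonate route in rice, stood at 35.9, 23.5 and 30.4 FPKM at 1, 3 and 5 days of darkness and at 69.4, 44.1 and 35.1 FPKM after 30 min, 60 min and 24 h of light. The 30-min and 60-min libraries lay above all dark libraries, and the 24-h library between those of 1 and 5 days. Its level exceeded that of AOC3 6.70-fold to 13.2-fold within a library.

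LOX3, a 9S-lipoxygenase, stood at 31.8, 22.4 and 19.3 FPKM at 1, 3 and 5 days of darkness and at 32.5, 32.0 and 13.7 FPKM after 30 min, 60 min and 24 h of light. The 1-day dark, 30-min and 60-min libraries lay close together, and the 24-h library was the lowest of all. LOX4, the other 9S-lipoxygenase, stood at 22.3, 9.42 and 8.29 FPKM in the dark libraries and at 28.5, 19.4 and 19.9 FPKM in the light libraries. All light libraries lay above the 3-day and 5-day dark libraries, and 30 min alone lay above the 1-day dark library. The level of LOX3 was 1.14 to 2.38 times that of LOX4 in the first 5 libraries, but 0.687 times after 24 h of light. The identifiers of these loci lie close together and the enzymes are alike, so reads that match both could shift level from one to the other.

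**Figure D1:**
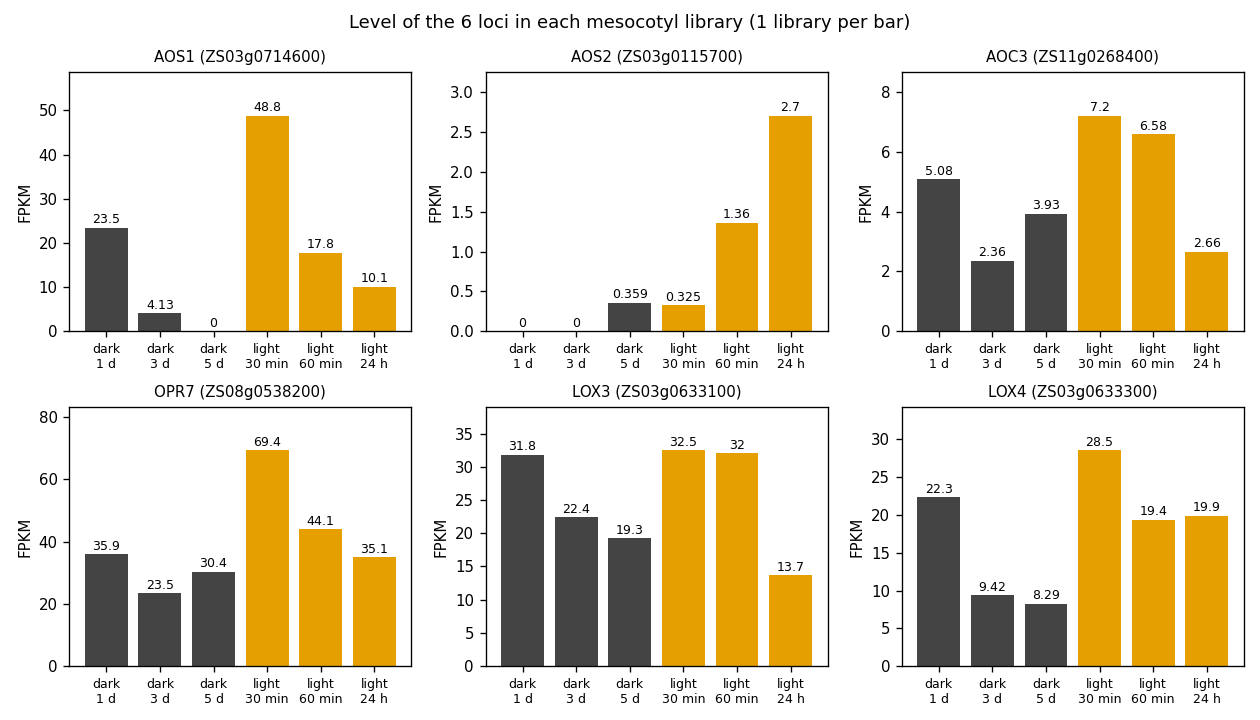
Each panel shows 1 locus, with its FPKM (vertical axis, from 0, its own scale) in the 3 dark libraries (grey bars) and the 3 light libraries (orange bars), 1 library per bar and no error bars. The 30-min bar is the tallest for AOS1, AOC3, OPR7, LOX4 and, by a narrow margin, LOX3, and the 24-h bar for AOS2.

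From 1 to 3 days of darkness none of the 6 loci was higher. Differences are given as log2((FPKM + 1)/(FPKM + 1)), which understates differences at low level, and a locus was counted at a difference of 1 or more, that is 2-fold, in either direction. The threshold is one of size, with no test behind it. It was applied to the 23787 loci that reached 1 FPKM in 1 or more libraries, which include all 6, AOS2 through its light libraries alone. AOS1 (-2.25) and LOX4 (-1.16) were counted as lower, as were 14.5% of all loci tested (13.5% were higher), and AOC3 (-0.86), OPR7 (-0.59) and LOX3 (-0.49) were lower by less. AOS2 was listed at 0 in both libraries. From 3 to 5 days AOS1 was counted as lower through its listed 0 (4.79% of all loci lower, 14.5% higher), and the other 5 lay between -0.21 and 0.55. The median over all loci was 0.27 in that comparison. When libraries were scaled by the median ratio of loci, LOX3 lay at -0.61, LOX4 at -0.54, OPR7 at -0.04, AOC3 at 0.24 and AOS2 at 0.41.

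After 30 min of light, 3 of the 6 loci were at least 2-fold higher than in the 5-day dark library, where 9.49% of all loci were, and none was lower (11.4% of all loci). These were AOS1, against its listed 0, LOX4 (1.67, 3.44-fold) and OPR7 (1.16, 2.28-fold). AOC3 (0.74, 1.83-fold) and LOX3 (0.72, 1.68-fold) were higher by less, and AOS2 was level (-0.04). The median over the 6 loci was 0.95 and over all loci 0.

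After 60 min, 2 of the 6 loci were at least 2-fold higher than at 5 days of darkness (14.8% of all loci), AOS1 against its listed 0 and LOX4 (1.14, 2.34-fold). The remaining 4 lay between 0.52 and 0.80, and none was lower (12.8% of all loci). After 24 h, 3 were higher (11.6% of all loci): AOS1 against its listed 0, AOS2 (1.45, from 0.359 to 2.70 FPKM) and LOX4 (1.17, 2.40-fold). OPR7 lay at 0.20, AOC3 at -0.43 and LOX3 at -0.47, and none was counted as lower (14.4% of all loci). LOX4 was the only locus of the 6, besides AOS1 with its listed 0, that was counted as higher at all 3 light times.

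**Figure D2:**
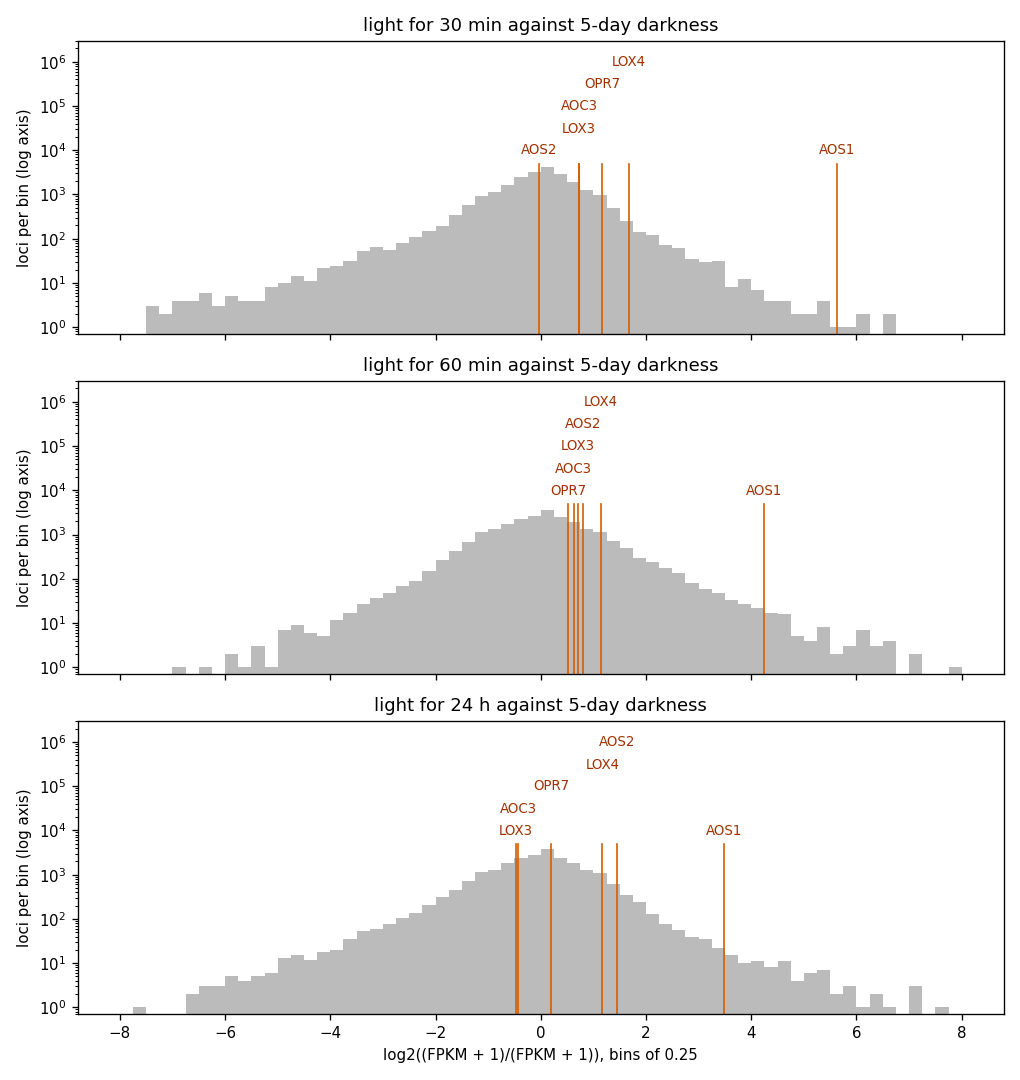
Histograms of the difference from the 5-day dark library over the 23787 loci tested, for 30 min, 60 min and 24 h of light from top to bottom (horizontal axis log2((FPKM + 1)/(FPKM + 1)), vertical axis loci per bin of 0.25, log scale), with a vertical line for each of the 6 loci. AOS1 lies far to the right through its listed 0, where the pseudocount sets its place (5.64, 4.24 and 3.47, but 8.93, 7.49 and 6.67 with a pseudocount of 0.1), and the other 5 lie between -0.47 and 1.67.

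Because of that 0, and because all comparisons of light with darkness so far rest on 1 dark library, each was also taken against the 3-day dark library, in which AOS1 was detected. After 30 min, 4 of the 6 loci were then at least 2-fold higher (12.9% of all loci, with 4.90% lower): AOS1 (3.28), OPR7 (1.52), LOX4 (1.50) and AOC3 (1.29). LOX3 lay at 0.52 and AOS2, listed at 0 in the dark library, at 0.41. After 60 min AOS1 (1.88), AOS2 (1.24, against a listed 0) and AOC3 (1.18) were counted as higher (24.0% of all loci, with 8.89% lower), and LOX4 lay at 0.97. After 24 h AOS1 (1.12), AOS2 (1.89, against a listed 0) and LOX4 (1.01) were (14.8% of all loci, with 6.50% lower). None of the 6 was counted as lower in these comparisons. The median over all loci lay at 0.27, 0.33 and 0.23 in these 3 comparisons, so the values of the loci are to be read against that shift.

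**Figure D3:**
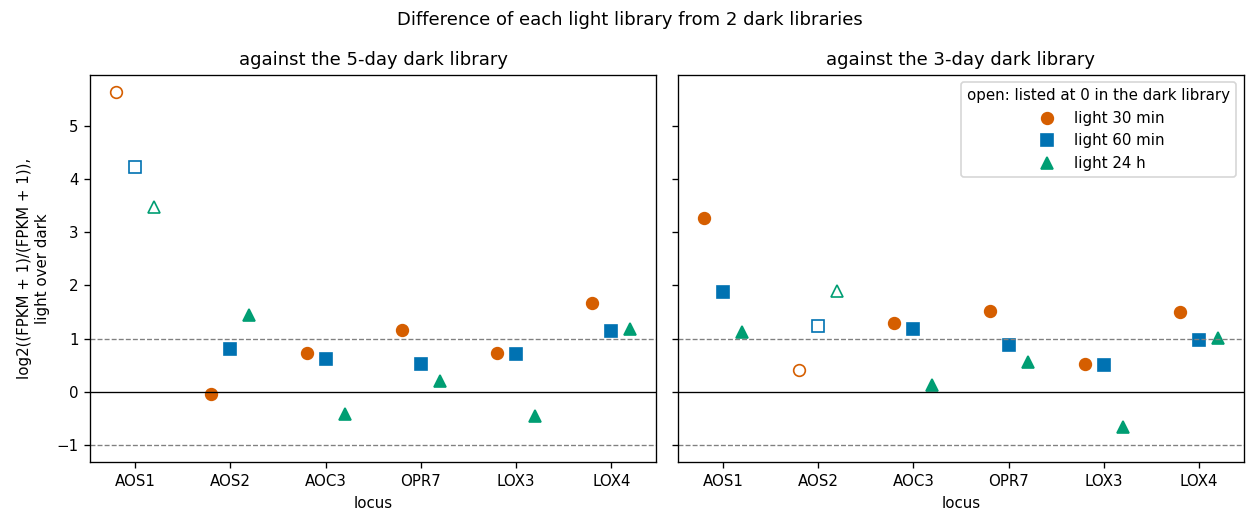
Difference of the 30-min (circles), 60-min (squares) and 24-h (triangles) light libraries from the 5-day dark library (left) and the 3-day dark library (right) for each of the 6 loci, as log2((FPKM + 1)/(FPKM + 1)), with dashed lines at 2-fold and open symbols where the dark library lists 0. For AOS1, AOC3, OPR7 and LOX3 the symbols run downward from 30 min to 24 h in both panels, for AOS2 they run upward.

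From 30 to 60 min of light, AOS1 was counted as lower (-1.40, 2.74-fold), as were 11.8% of all loci, and none was counted as higher (15.2%). OPR7 (-0.64, 1.57-fold) and LOX4 (-0.53, 1.47-fold) were lower by less, AOC3 (-0.11) and LOX3 (-0.02) were level, and AOS2 lay at 0.84. From 60 min to 24 h, LOX3 (-1.17, 2.34-fold) and AOC3 (-1.05, 2.47-fold) were counted as lower (15.1% of all loci, with 10.6% higher), AOC3 only just, as it lay at -0.94 when libraries were scaled by the median ratio of loci. LOX4 was level between those libraries (0.04).

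The levels of tissue marker loci were not uniform over the libraries. The libraries also differ in light and in days of darkness, so a difference in marker level is not by itself a difference in tissue. The summed level of 7 chlorophyll a-b binding loci, markers of green shoot tissue, was 796 FPKM in the 60-min library and 16.4 to 62.6 FPKM in the other 5. All 7 were detected in the 60-min library, whereas 6 of them were listed at 0 at 3 days and 3 after 30 min. The sum of 9 cortical cell-delineating protein loci, root markers, was 1219 FPKM at 1 day and 106 to 361 elsewhere. These loci did not move together: 2 to 5 of them were listed at 0 in a library, and 6 passed the filter. Of the 6, 1 was at least 2-fold higher and 2 lower from 1 to 3 days (13.5% and 14.5% of all loci). From 3 to 5 days 3 were higher and 2 lower (14.5% and 4.79%). The sum of 68 epidermis marker loci was 715 FPKM at 1 day and 696 after 60 min, against 360 to 458 in the other libraries. Of these loci 53 passed the filter, and from 1 to 3 days 10 were higher and 20 lower (13.5% and 14.5% of all loci). From 5 days of darkness to 60 min of light 23 were higher and 3 lower (14.8% and 12.8%). The sum of 28 seed marker loci lay between 56.4 and 109 FPKM, with 9 to 14 of them at 0. LOX3 and AOC3 had their highest deposited levels in the 30-min library, where the epidermis sum was 458 FPKM, against 378 at 5 days. The green shoot sum was highest in the 60-min library, in which none of the 6 loci had its highest level. The part of tissue makeup in the levels of the 6 loci was not tested, and in pooled tissue fewer cells of a type and less RNA per cell cannot be told apart.

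**Figure D4:**
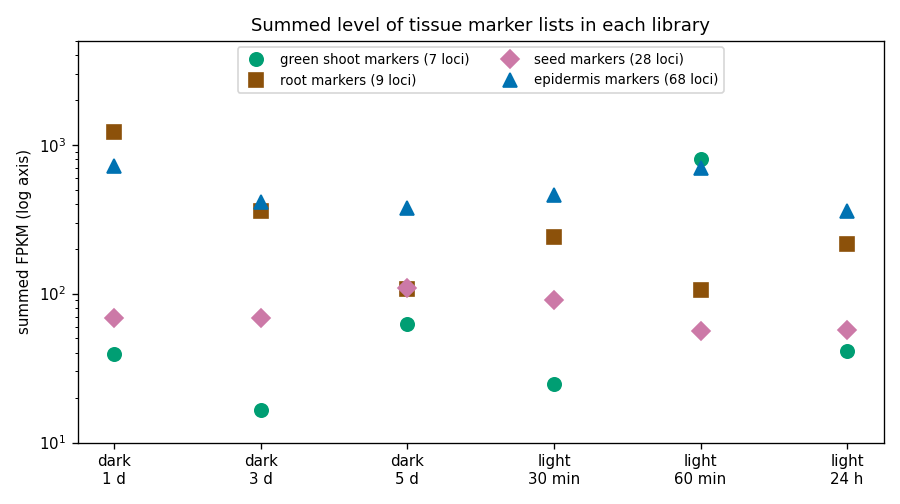
Summed FPKM (log axis) of the marker lists for green shoot (7 loci), root (9), seed (28) and epidermis (68) in each of the 6 libraries. The green shoot sum stands at 796 FPKM in the 60-min library and at 62.6 or less in the others, and the root sum is highest at 1 day.

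The other loci with lipoxygenase in their product name were at lower level than LOX3 and LOX4 in every library. Of 9 loci with that product name, 6 passed the filter, and with the 2 described above 2 were at least 2-fold higher and 1 lower after 30 min of light than at 5 days of darkness (9.49% and 11.4% of all loci), with a median of 0.83 over the 6. Lipoxygenase 5 (ZS04g0546200) stood at 2.08, 2.99 and 2.86 FPKM in the dark libraries and at 13.6, 4.24 and 5.52 FPKM in the light libraries, high after 30 min alone. Lipoxygenase 6 (ZS03g0076300) stood at 3.61, 1.71 and 2.26 FPKM in darkness and at 5.22, 5.85 and 3.39 FPKM in light. Linoleate 9S-lipoxygenase 6 (ZS05g0260400, merged with ZS05g0260500) stood at 1.28, 0.751 and 1.34 FPKM in darkness and at 1.82, 3.21 and 3.43 FPKM in light. The locus ZS12g0433100 was seen at 3.31 FPKM at 5 days and 3.32 after 60 min, and at 0.0135 or less in the other libraries. The loci named as chloroplast lipoxygenases 2.1, 2.3 and 7 did not exceed 0.341 FPKM in any library. Which of the named lipoxygenases, 5 and 6 included, start jasmonate synthesis was not tested.

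The 9S-lipoxygenase orthology group holds further loci that the table leaves without an enzyme name. The locus ZS03g0632100 stood at 0.494, 0.243 and 1.35 FPKM in darkness and at 11.0 and 4.80 FPKM after 30 and 60 min of light. It was highest after 24 h, at 2.58 on the log2 scale above 5 days of darkness, and each light library lay above all dark ones. The share of all loci in such an order, here and below, was not counted. Libraries of different light times or days of darkness are not replicates. The locus ZS11g0481300 stood at 14.9 FPKM at 1 day, 3.00 at 5 days and 4.90 to 5.94 in light. The locus ZS03g0679400 was highest at 1 day, at 79.4 FPKM, and stood at 16.8 at 5 days and 4.78 after 24 h. In that group (K15718, 8 loci), 7 passed the filter, and without LOX3 and LOX4 1 of 5 was higher after 30 min and 1 was lower (9.49% and 11.4% of all loci). The lower one, ZS11g0481200, stood at 9.50 FPKM at 5 days, 0.368 after 30 min, 15.1 after 60 min and 0.274 after 24 h.

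The OPDA reductase family held larger differences than OPR7 itself. Some of its members in rice are cytosolic enzymes outside the main jasmonate route. ZS06g0138600, named 12-oxophytodienoate reductase 1, stood at 5.34, 6.49 and 3.60 FPKM in darkness and at 67.8, 31.4 and 17.1 FPKM in light, with every light library above every dark one. ZS06g0139000, of the same product name, stood at 1.42, 3.03 and 2.61 FPKM in darkness and at 14.5, 6.65 and 5.56 FPKM in light, again without overlap. How many of all loci show no such overlap was not counted. ZS06g0138900, annotated to the same orthology group without a product name, stood at 7.12, 10.9 and 5.46 FPKM in darkness and at 30.2, 32.0 and 5.92 FPKM in light. ZS01g0310700, likewise, was at 1.72 to 4.15 FPKM in darkness and at 14.8 after 30 min. These identifiers sit close together in part, and values of such near copies are uncertain where reads could match several.

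Other loci of the family did not follow. ZS04g0532800, named reductase 11, stood at 8.87 FPKM at 5 days, 2.87 after 30 min, 9.99 after 60 min and 2.27 after 24 h. ZS04g0533300 stood at 13.3 FPKM at 5 days and at 5.68 to 6.89 in light. ZS04g0533200 stood at 2.60 FPKM at 1 day and at 7.15 to 13.9 in the other libraries. Of the 10 loci of the orthology group (K05894) that passed the filter, OPR7 included, 5 were at least 2-fold higher after 30 min and 1 lower (9.49% and 11.4% of all loci). The summed level of the 7 loci named as OPDA reductases was 68.6 FPKM at 5 days, 169 after 30 min, 105 after 60 min and 77.1 after 24 h.

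Upstream of the lipoxygenases, the endoplasmic reticulum omega-3 desaturase ZS03g0181800, an enzyme that makes linolenic acid, stood at 19.1, 9.89 and 13.8 FPKM in darkness and at 199.8, 53.8 and 45.6 FPKM in light. Every light library lay above every dark one, an order whose share over all loci was not counted. The chloroplast desaturases differed from it. The omega-3 enzyme (ZS07g0589500) stood at 8.27 FPKM at 5 days, 0.596 after 30 min, 4.37 after 60 min and 0.884 after 24 h. The omega-6 enzyme (ZS08g0504100) stood at 16.4, 7.13, 25.8 and 5.94 FPKM in those libraries. Both were highest in the 5-day and 60-min libraries, those with the highest green shoot sums.

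Among phospholipases A1, which free fatty acids from membrane lipids, 7 of 10 loci passed the filter, and 1 was higher and 2 lower after 30 min (9.49% and 11.4% of all loci). EG1 (ZS01g0746800), which acts in jasmonate synthesis in rice spikelets, was listed at 0, 0 and 0.0312 FPKM in darkness and at 1.60, 0.877 and 0.394 FPKM in light. Phospholipase A1-II 5 (ZS01g0569600) stood at 15.3, 1.25 and 11.3 FPKM in darkness and at 0.741, 23.1 and 1.12 FPKM in light, and A1-II 4 (ZS01g0525000) at 16.3 FPKM at 5 days and 5.90 after 30 min. A1-Igamma1 (ZS05g0399800) stood at 1.40 FPKM at 5 days and 3.26 after 30 min, and A1-II 7 (ZS05g0591000) at 0.348 FPKM at 5 days and 2.96 after 24 h.

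Downstream of OPR7, the ligases that activate its product for beta-oxidation were mixed. In the orthology group for that ligase (K10526, 9 loci), 6 passed the filter, and 2 were higher and none lower after 30 min (9.49% and 11.4% of all loci). The 4-coumarate-CoA ligase-like 4 locus (ZS03g0038000) stood at 22.4, 16.1 and 6.88 FPKM in darkness and at 32.5, 7.60 and 8.67 FPKM in light, so that of the light libraries the 30-min one alone lay above 5 days by over 2-fold, as did the 1-day and 3-day dark libraries. ZS03g0036500 stood at 0.145 FPKM at 5 days and at 1.29, 4.07 and 0.824 FPKM in light. Ligase-like 7 (ZS07g0232200) stood at 6.37, 1.10 and 1.29 FPKM in darkness and at 3.11, 4.06 and 2.78 FPKM in light.

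Of 7 loci of peroxisomal beta-oxidation, 6 passed the filter, none was higher and 1 was lower after 30 min (9.49% and 11.4% of all loci). That locus, acyl-coenzyme A oxidase 4 (ZS06g0306700), stood at 54.7, 109 and 271 FPKM in darkness and at 100.4, 92.0 and 63.4 FPKM in light. The 3-ketoacyl-CoA thiolase 2 locus (ZS02g0707300), which removes the shortened chain ends, stood at 42.1, 169 and 127 FPKM in darkness and at 179, 73.7 and 176 FPKM in light. The multifunctional protein ZS02g0197200 stood at 66.2 FPKM at 5 days and 128 after 30 min (0.94). These enzymes also act on other fatty acids, storage fat included.

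**Figure D5:**
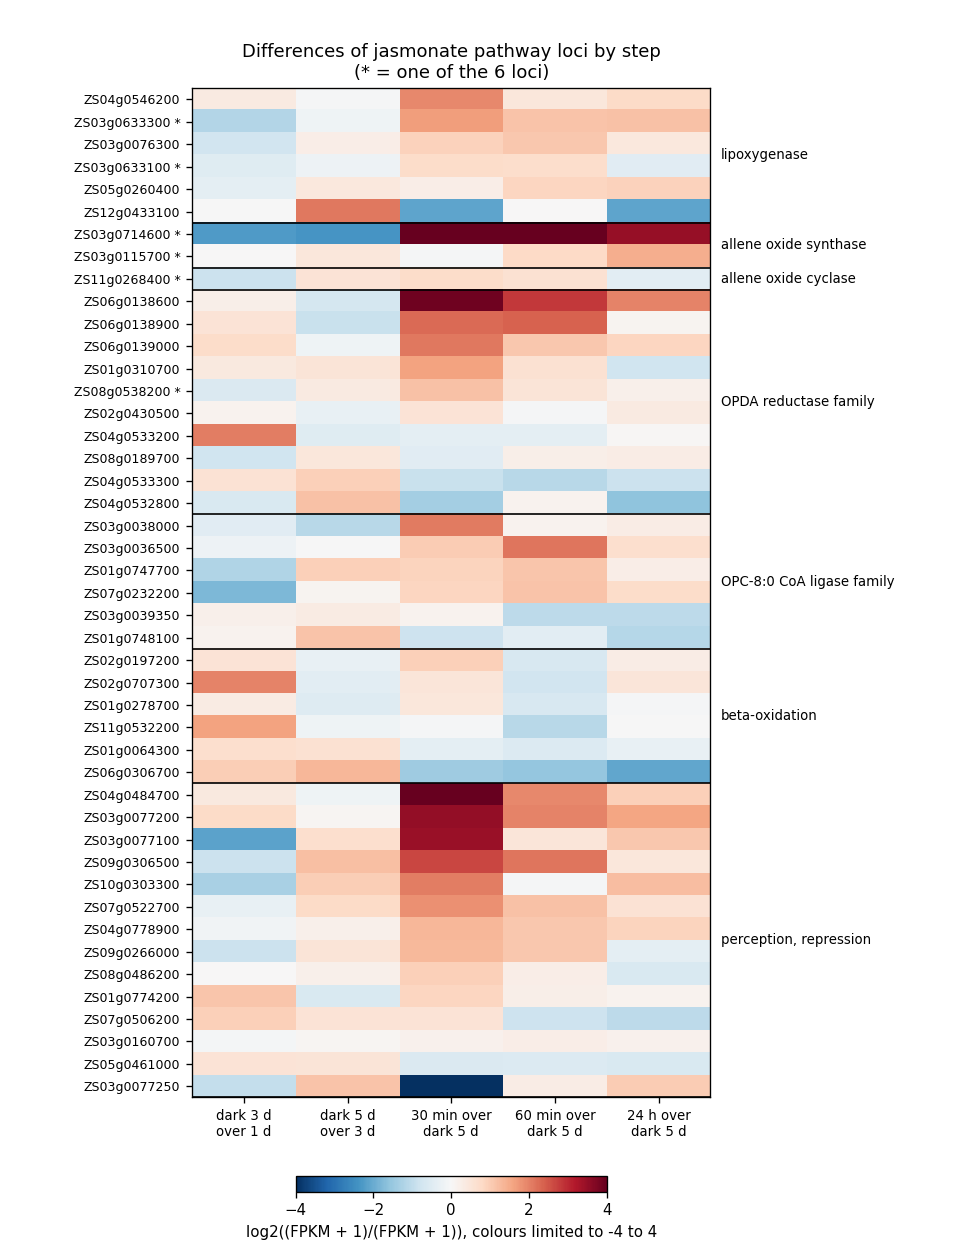
Difference of each locus that passed the filter (rows, grouped by step of the pathway, the 6 loci starred) in 5 comparisons (columns), as log2((FPKM + 1)/(FPKM + 1)), red for higher and blue for lower, with colours limited to -4 to 4. In the 30-min column the AOS1 row (against its listed 0), the upper OPDA reductase rows and the upper rows of the last block are red, and the 1 dark blue row of that block, TIFY 11b, is listed at 0 in the 30-min library, while most beta-oxidation rows stay pale or blue.

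Loci that receive or remove jasmonate differed among themselves. The JAZ repressors are proteins of the TIFY family that jasmonate marks for breakdown and whose transcripts it raises. For TIFY 10c (ZS09g0306500) the levels were 10.0, 5.12 and 13.2 FPKM in darkness and 90.2, 61.5 and 18.6 FPKM in light. In the list of perception and repression loci, 14 of 16 passed the filter and 8 were higher and 1 lower after 30 min (9.49% and 11.4% of all loci), with a median of 1.31. The lower one is TIFY 11b (ZS03g0077250), for which the 30-min library alone lists 0 and the rest hold 14.2 to 65.7 FPKM. The receptor loci lay within 2-fold in every light comparison with 5 days: COI1b (ZS05g0461000) stood at 36.8 to 76.8 FPKM and COI2 (ZS03g0160700) at 12.4 to 15.9 FPKM over the 6 libraries.

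Of 9 loci for conjugation and inactivation, 6 passed the filter, and none was counted as higher or lower after 30 min (9.49% and 11.4% of all loci). Cytochrome P450 94B3 (ZS03g0113600), an enzyme that oxidises the active hormone in Arabidopsis, was listed at 0, 1.28 and 0 FPKM in darkness and at 0.467, 3.12 and 1.23 FPKM in light. Cytochrome P450 94C1 (ZS11g0051400), of the same route, was listed at 3.93, 1.52 and 0 FPKM in darkness and at 0 in all light libraries. The jasmonate O-methyltransferase locus (ZS06g0268600) stood at 0.106, 12.0 and 15.9 FPKM in darkness and at 10.9, 4.09 and 6.85 FPKM in light. Of the hydrolase loci ILR1-like 3 (ZS03g0799000) held the widest range, from 1730 FPKM at 1 day to 35.8 at 5 days, and stood at 59.7 after 30 min.

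Of the peroxygenases, other enzymes of oxylipin metabolism, ZS06g0173000 stood at 20.9 FPKM at 5 days and 64.3 after 30 min. ZS04g0626000 and ZS04g0625900 stood highest after 24 h, at 15.4 and 3.96 FPKM, against 4.34 and 0.173 at 5 days. ZS03g0113300 lay between 8.32 and 15.0 FPKM over the 6 libraries.

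Across the deposited pathway for alpha-linolenic acid metabolism, which holds AOS1, AOS2, AOC3 and OPR7, 74 of 148 loci passed the filter. After 30 min of light, 14 of the 74 passed 2-fold upward and 8 downward relative to 5 days of darkness, against 9.49% and 11.4% of all loci. The median was 0.22 against 0 over all loci. After 60 min 10 were higher and 11 lower (median -0.03), against 14.8% and 12.8% of all loci. After 24 h 9 were higher and 11 lower (0.11), against 11.6% and 14.4%, so that the counts at both times lay near the share over all loci. In the linoleic acid pathway, which holds LOX3 and LOX4, 26 of 37 loci passed, with 6 higher and 5 lower after 30 min (0.21, against 9.49% and 11.4% of all loci). Without LOX3 and LOX4, 5 of 24 were higher and 5 lower (0.16). Of 20 loci that passed and carry the annotation jasmonic acid biosynthetic process, 8 were higher and 3 lower after 30 min (0.83, against 9.49% and 11.4% of all loci). After 60 min 4 were higher and 3 lower (0.42, against 14.8% and 12.8%), and after 24 h 2 and 3 (0.28, against 11.6% and 14.4%). That list holds some of the 6 loci. Without them, 7 of 18 were higher and 3 lower after 30 min (0.83).

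The pattern of the 6 loci over the libraries was compared with that of 7725 loci of descriptive product name and a mean of at least 1 FPKM (7726 for AOS2), by Pearson's r of log2(FPKM + 1) over the 6 libraries. All loci share these libraries, and r is given as a description. Nothing about shared function or control follows from it. Nearest to AOS1 were REDUCED WALL ACETYLATION 1 (ZS03g0209200, r = 0.99), a pentatricopeptide repeat locus (ZS09g0269500, r = 0.98) and beta-fructofuranosidase 1 (ZS04g0646100, r = 0.97). These rest in part on the 5-day library, where AOS1 is listed at 0: over the other 5 libraries r was 0.97, 0.96 and 0.96, and these loci ranked 24, 35 and 30. For OPR7 these were guanine deaminase (ZS03g0796400, r = 1.00), at 26.2 FPKM at 5 days and 76.2 after 30 min, CONSTANS-LIKE 3 (ZS02g0091600, r = 0.99) and a KRTCAP2 homolog (ZS05g0506200, r = 0.98). For AOC3 they were histidine kinase 6 (ZS02g0625700, r = 0.98), the JAZ locus TIFY 6b (ZS09g0266000, r = 0.98) and ALBINO3-like protein 1 (ZS03g0813300, r = 0.97).

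For AOS2 the nearest loci were the calcium-transporting ATPase 8 (ZS04g0736600, r = 0.98), at 12.6 FPKM at 5 days and 32.9 after 24 h, GTE1 (ZS06g0047500, r = 0.97) and the isomerase CYP57 (ZS01g0446500, r = 0.97). For LOX3 they were a putative pre-16S rRNA nuclease (ZS01g0627700, r = 0.97), a pentatricopeptide repeat locus (ZS08g0285200, r = 0.97) and an F-box locus (ZS05g0091600, r = 0.96). For LOX4 they were arginine N-methyltransferase 2 (ZS03g0710300, r = 0.99), a serine palmitoyltransferase (ZS02g0699600, r = 0.99) and WRKY67 (ZS11g0024900, r = 0.99). None of the 6 loci was among the 3 nearest of another. Among themselves, AOS1 and LOX4 had r = 0.94, AOC3 and OPR7 r = 0.84, and AOS2 and LOX3 r = -0.52. Without the 5-day library AOS1 and LOX4 had r = 0.93, whereas r of AOS1 with AOC3 was 0.90 in place of 0.58 and with OPR7 0.93 in place of 0.73.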

How the data were processed

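Values are FPKM per locus and library, computed by the authors and deposited as 1 table, per the file headers. The labels' protocols give TRIzol extraction, poly(A) capture and paired-end Illumina sequencing of 6 libraries. No source used here states how reads were aligned or counted, and Bowtie 0.12.2 and the mouse build mm8 stand in the submitters' processing notes without a role. The Illumina mRNA-Seq kit of the labels marks no strand, so antisense overlaps cannot be told apart. The table's p-value and q-value columns, deposited by the authors without naming the comparison, were not used. None of its 31872 gene names matched the reference table (0 matches), so product names are the table's own and no position or sequence is given.

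Read depth is unknown. Ratios of values under 0.1 FPKM of loci with 1 transcript shared a step to within 0.3% at only 2.34% to 4.55% of loci, so no whole reads were recovered and no count test was run. Library sums lay between 336212 and 359808 FPKM. The 3-day dark library had the lowest sum and the most loci listed at 0 (9807, against 7689 to 9576 in the others). Its most common ratio to the 1-day library was 2.01, against 1.16 to 1.24 for the others. Whether it was sequenced less deeply was not tested.

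Differences are log2 ratios of FPKM with a pseudocount of 1, for loci reaching 1 FPKM in 1 or more libraries, counted at 2-fold. With 1 library per group there is no test. Lists were matched by product name, and orthology groups and the jasmonic acid annotation were added once the table was in hand. From the lists, 1 glycosyltransferase subunit and 1 GATA factor that the patterns caught were then left out. Members and lists were chosen with earlier results of these data known. Named loci are the 6 members, every locus of lists with 4 or fewer measured loci, and otherwise the 2 highest and 2 lowest after 30 min and others past 2-fold in a described comparison. Nearest loci are the 3 of highest r, and loci called hypothetical or uncharacterized were left out. Calls and scalings were checked on simulated data. Alternatives were a pseudocount of 0.1, no filter, 2 scalings, the 3-day dark control and, chosen after seeing the data, leaving out loci listed at 0 and the AOS1 correlations without the 5-day library. Python 3.11.15, pandas 2.3.3 and numpy 2.4.6 were used.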

Additional observations from a re-analysis of the deposited data

How the results depend on the processing

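No paired analysis was possible because each group is 1 library. Scaling to the mean library sum kept every count of the 6 loci, of the alpha-linolenic acid pathway and of all loci within 1.5 times. Dropping the filter could not change a count. With a pseudocount of 1, a locus below 1 FPKM in every library cannot reach 2-fold. With a pseudocount of 0.1, 1 of the 6 loci was higher from 3 to 5 days and 1 from 30 to 60 min (AOS2 in both, at 2.20 and 1.79). Leaving out loci listed at 0 gave 0 lower loci from 3 to 5 days and 1 higher after 60 min. Median ratio scaling gave 1 lower from 60 min to 24 h, where AOC3 lay at -0.94. For the pathway, the pseudocount of 0.1 gave 14 higher from 3 to 5 days, 18 after 60 min and 16 after 24 h. Median ratio scaling gave 4 higher and 10 lower from 3 to 5 days, leaving out zeros 4 higher from 30 to 60 min, and the 3-day control 3 lower after 30 min, 18 higher after 60 min and 7 lower after 24 h. Over all loci, the pseudocount of 0.1 gave 5239 higher and 5260 lower from 1 to 3 days, 5896 and 1952 from 3 to 5 days, 3791 and 4198 after 30 min, 4626 lower after 60 min, 4260 higher after 24 h, 4605 lower from 30 to 60 min and 3941 higher from 60 min to 24 h. From 3 to 5 days median ratio scaling gave 1775 lower and leaving out zeros 708. The 3-day control gave 1166 lower after 30 min, 5711 higher after 60 min and 1547 lower after 24 h. The cause of these shifts was not tested. For the single loci, 213 of 222 log2 differences stayed on their side of 2-fold. Of the 222, the 42 without the filter and the 36 with zeros left out could not change. The first setting adds loci and the second drops loci, but both leave each difference as it is, so they say nothing about stability. The sign changed in 4, none past 2-fold under either setting: OPR7 from 3 to 5 days (0.36 to -0.04 with median ratio scaling), LOX3 from 30 to 60 min (-0.02 to 0.01 with scaled sums), and with the 3-day control AOS2 after 30 min (-0.04 to 0.41) and AOC3 after 24 h (-0.43 to 0.12).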

Other observations

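The orthology group that the deposited table gives to allene oxide synthase (K01723) holds 41 loci, of which 30 carry transposon product names and 4 passed the filter. Besides AOS1 and AOS2 these are ZS02g0129900, listed at 0, 23.7 and 9.92 FPKM at 1, 3 and 5 days of darkness and at 17.2, 0 and 14.9 FPKM after 30 min, 60 min and 24 h of light, and ZS02g0129800, at 0.366 FPKM or less in the first 5 libraries and 2.55 after 24 h. The first was listed at 0 in the 1-day dark and 60-min light libraries. The second, like AOS2, was highest after 24 h of light. In the alpha-linolenic acid pathway 31 of 148 loci carry transposon product names, none of which passed the filter.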
